A study of Macaca mulatta with 6 samples.

Results

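NRF2 oxidative defence targets are genes that the transcription factor NRF2 switches on when cells meet oxidants or reactive chemicals. The 9 described here are SLC7A11, GCLC, GCLM, SRXN1, TXNRD1, NQO1, AKR1B10, PGD and ME1, found by symbol among 32386 rows of a count table, with 1 row each. All 9 passed the filter on low counts, which left 13768 genes. The set was chosen by its CPM in these same 3 UA and 3 WT libraries, with no threshold of size, so their differences between groups are a description. The genes were part of the fit across all genes, and where its calls are given for them below they are not a test of these genes.

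RNA was sequenced from 6 rhesus macaque granulocyte-macrophage colonies (CFU-GM), each picked as a single colony and split for RNA and for genotyping. UA colonies (n = 3) had genotype TET2+/-, a uniallelic mutation predicted to cause loss of function, and WT colonies (n = 3) were TET2 wild type. Each colony grew for 14 days in semi-solid medium from 1 CD34+ cell of the bone marrow. That marrow was taken 15 months after autologous transplantation of mobilized CD34+ cells treated with CRISPR/Cas9, so UA and WT colonies share that treatment and transplantation. The number of animals is not stated in the labels, and p-values measure only the spread between these libraries. TET2 is a dioxygenase that starts the removal of methyl groups from DNA.

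NRF2, encoded by NFE2L2, is normally bound by KEAP1, which directs it to a CUL3 and RBX1 ubiquitin ligase for destruction. Oxidants modify KEAP1, NRF2 then accumulates, pairs with a small MAF protein and binds antioxidant response elements near its targets. BACH1 competes for the same elements and represses genes such as HMOX1. Since NRF2 is controlled mainly as a protein, its mRNA is not a measure of its activity. In myeloid cells these targets supply glutathione, thioredoxin and NADPH, which limit damage from the cells' own oxidants. Roles given here are known mainly from human and mouse.

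Library totals ranged from 6334264 to 17684447 counts in UA and from 10574104 to 25485143 in WT. Libraries of the UA label lay closer together than those of the WT label. The biological coefficient of variation was 10.2 to 10.9% for pairs of UA libraries and 20.1 to 34.9% for pairs of WT libraries. The pairs with WT replicate 1 had the 2 highest values, so that library stands apart from the other WT libraries. Differences between UA libraries exceeded counting error (chi-square per degree of freedom 4.25 to 5.24), but 3 similar colonies and 1 source of RNA cannot be told apart. Results are therefore also given with the UA libraries summed to 1 sample, which leaves the WT libraries as the only measure of spread. Markers of other cell types differed too, to be read beside 34.6% of all genes tested called higher in UA and 31.4% called lower. Megakaryocyte markers had 4 of 6 tested members higher and 1 lower, with a summed level of 737 to 752 CPM in UA and 416 to 465 CPM in WT. TUBB1, the member that was lower, made up most of the WT sum, with means of 203 CPM in UA and 440.1 CPM in WT. PF4, PPBP, ITGA2B and GP1BB had means of 204, 258, 60.0 and 13.4 CPM in UA and 0.609, 0.614, 1.01 and 0.224 CPM in WT. Stromal and endothelial markers had 6 of 7 higher and 1 lower, at 1235 to 1272 CPM in UA and 146 to 153 CPM in WT. The lower member, DCN, made up most of the WT sum, with means of 21.6 CPM in UA and 113 CPM in WT. Eosinophil and mast cell markers had 4 of 4 tested members higher, at 1399 to 1512 CPM in UA and 57.2 to 63.6 CPM in WT. Of the erythroid markers, 2 of 3 tested were higher and 1 lower, at 19.3 to 26.0 CPM in UA and 12.0 to 22.7 CPM in WT. Of the markers of the labelled lineage, primary granule genes had 4 of 4 tested members higher, at 24121 to 24967 CPM in UA and 1159 to 1277 CPM in WT. Monocyte and macrophage genes had 4 of 6 higher and 1 lower, at 7846 to 7997 CPM in UA and 1634 to 2071 CPM in WT. CD14, the member that was lower, made up most of the WT sum, with means of 21.7 CPM in UA and 1147 CPM in WT. LYZ made up most of the UA sum, with means of 7600 CPM in UA and 464 CPM in WT. No marker with a row was at 0 in all libraries of a group. The part of these markers in the results below was not tested, and fewer cells of a type and less RNA per cell cannot be told apart in whole colonies.

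All 9 NRF2 targets were lower in UA than in WT, in 3 of 3 libraries each after TMM scaling. Levels are CPM, each count relative to its library's total after TMM adjustment, a scaling that assumes most genes do not differ. With 66% of genes called in either direction, that assumption was not met here. With library size alone as the scale, the groups overlapped for GCLC, TXNRD1 and PGD. The sizes formed a large and a small class, with AKR1B10, ME1, SRXN1, SLC7A11 and NQO1 at log2 fold changes of -2.59 and beyond, and GCLM, TXNRD1, GCLC and PGD between -0.99 and -0.34. The median was -2.59, beside 0.12 for all genes tested. At an adjusted p under 0.05, edgeR called 9 of 9 lower in UA, beside 31.4% of all genes tested (34.6% were called higher and 66% in either direction). Groups did not overlap with UA below WT for 9 of 9, beside 34% of all genes (39.2% had UA above WT, and 73.2% did not overlap in either direction). These counts follow from how the genes were chosen and say nothing further about them.

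**Figure D1:**
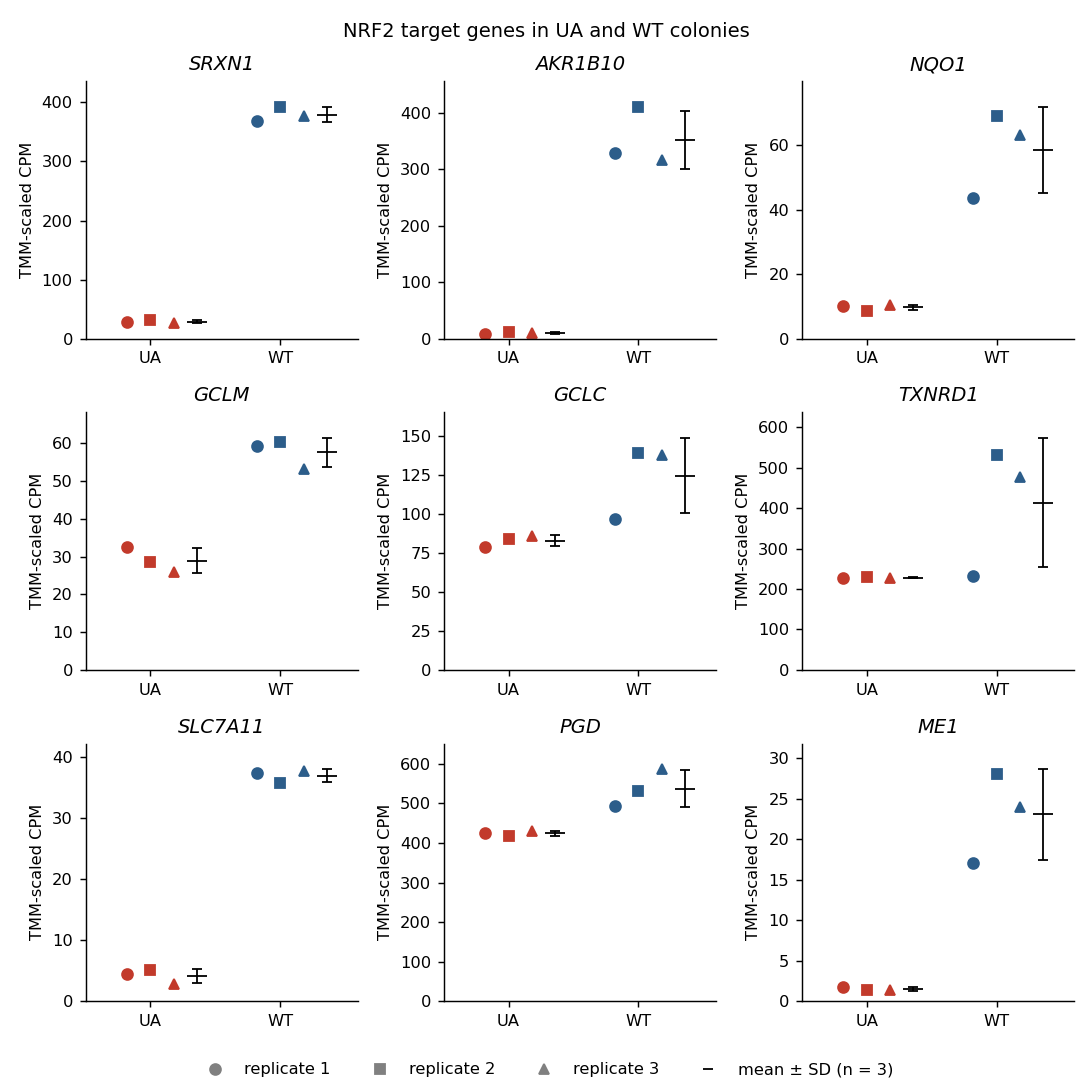
TMM-scaled CPM of the 9 NRF2 target genes (y axes, linear from 0) in each UA colony (red, left) and each WT colony (blue, right), with the mean ± SD of 3 libraries beside the points. SRXN1, AKR1B10, SLC7A11, NQO1 and ME1 are far apart between labels, while WT replicate 1 (circle) sits near the UA libraries for TXNRD1, at 231 CPM.

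The first role is the supply of glutathione. Coordinates are those the authors deposited, with no build named beside them. SLC7A11 (ENSMMUG00000020317; chromosome 5, 138081866 to 138154000), the cystine-importing chain of the transporter xCT, had 4.39, 5.19 and 2.81 CPM in UA replicates 1 to 3. It had 37.5, 35.8 and 37.6 CPM in the WT replicates. WT libraries were within 1.05 times of each other, and UA libraries spread by 1.85 times on counts of only 81, 54 and 19. The log2 fold change was -3.13 (SE 0.26), from means of 4.13 ± 1.21 CPM in UA and 37.0 ± 1.04 CPM in WT (SD, n = 3 each).

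Glutamate-cysteine ligase, the first and rate-limiting enzyme of glutathione synthesis, has a catalytic subunit, GCLC, and a modifier subunit, GCLM. GCLM (ENSMMUG00000013857, chromosome 1, 94551082 to 94570927) had 32.5, 28.5 and 26.0 CPM in UA and 59.3, 60.2 and 53.3 CPM in WT, with a log2 fold change of -0.99 (SE 0.18). GCLC (ENSMMUG00000008684, chromosome 4, 54419312 to 54468492) had 78.9, 83.8 and 86.1 CPM in UA and 96.7, 139 and 138 CPM in WT, with a log2 fold change of -0.59 (SE 0.18). For GCLC the coefficient of variation was 4.43% in UA and 19.4% in WT, and for GCLM it was 11.3% in UA and 6.55% in WT. WT replicate 1 was the low WT library for GCLC but not for GCLM. The ratio of GCLM to GCLC counts was 0.411, 0.339 and 0.302 in UA and 0.614, 0.432 and 0.387 in WT, and the groups overlapped. With library size alone as the scale, GCLC was 82.3 to 92.0 CPM in UA and 83.1 to 138 CPM in WT, so the groups overlapped. Without UA replicate 1 its log2 fold change was -0.55. GCLC was called lower in the main fit but in neither of these settings.

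The second role is the repair of oxidized peroxiredoxins and the reduction of thioredoxin. SRXN1, sulfiredoxin, which restores over-oxidized peroxiredoxins, (ENSMMUG00000047391) lies on chromosome 10 (33414919 to 33445517). It had 29.2, 31.2 and 26.7 CPM in UA and 368, 392 and 376 CPM in WT. Both labels were tight, with a coefficient of variation of 7.64% in UA and 3.29% in WT, and the means were 13.1-fold apart. The log2 fold change was -3.70 (SE 0.16), and of the 9 genes PGD alone had a smaller error.

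TXNRD1, the cytosolic selenoenzyme that reduces thioredoxin (ENSMMUG00000012091, chromosome 11, 104136036 to 104270949), had 228, 229 and 228 CPM in UA and 231, 532 and 476 CPM in WT. WT replicate 1 was thus only just above the UA libraries, while the other WT libraries were more than 2 times as high. The log2 fold change was -0.85 (SE 0.26), and -1.13 without WT replicate 1. It was -0.64 without WT replicate 2, and with library size alone WT replicate 1, at 199 CPM, fell below the 3 UA libraries, at 238 to 244 CPM. The difference of TXNRD1 between labels therefore rests on 2 of the 3 WT libraries. TXNRD1 was called lower in the main fit, but neither without WT replicate 2 nor with library size alone.

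The third role is the reduction of quinones and aldehydes. NQO1, which reduces quinones by 2 electrons and so avoids radical intermediates, (ENSMMUG00000019684) lies on chromosome 20 (54148310 to 54168539). It had 10.1, 8.65 and 10.3 CPM in UA and 43.5, 68.9 and 63.2 CPM in WT, a log2 fold change of -2.59 (SE 0.23). AKR1B10, listed by symbol, an aldo-keto reductase that clears reactive aldehydes and retinal, had 8.13, 11.7 and 10.8 CPM in UA and 328, 410.3 and 316 CPM in WT. Its log2 fold change of -5.12 (SE 0.21) was the largest of the 9, a 34.4-fold difference of the means. UA and WT were far apart for both genes, and WT replicate 1 was the lowest WT library for NQO1 but not for AKR1B10. The deposited coordinates of AKR1B10 run from 160698292 to 160824804 on chromosome 3, and near-identical relatives can share its reads, so its level is uncertain. AKR1B1, the related aldose reductase, fell to 195 ± 6.56 CPM in UA, against 477 ± 85.2 CPM in WT (SD, n = 3 each; log2 fold change -1.29, edgeR adjusted p = 4.15e-05). The ratio of AKR1B10 to AKR1B1 counts was 0.0434, 0.0595 and 0.0540 in UA and 0.570, 0.958 and 0.740 in WT, with no overlap.

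The fourth role is the supply of NADPH, which powers both the glutathione and the thioredoxin cycles. PGD, the second NADPH-producing enzyme of the pentose phosphate pathway (ENSMMUG00000023029, chromosome 1, 9646058 to 9666489), had 425, 418 and 431 CPM in UA and 494, 531 and 586 CPM in WT. Its log2 fold change of -0.34 (SE 0.13) was the smallest of the 9. Leaving out any 1 UA library, WT replicate 2 or WT replicate 3 gave -0.36 to -0.28, and library size alone -0.18, with groups that overlapped. PGD was called lower in the main fit but in none of these settings. Nor was it called with the replicate block, without a low-count filter or with at least 5 CPM in 3 libraries. ME1 (ENSMMUG00000012592), the cytosolic malic enzyme, had 1.73, 1.35 and 1.33 CPM in UA and 17.1, 28.1 and 24.0 CPM in WT, a log2 fold change of -3.93 (SE 0.32). The UA values of ME1 rest on 32, 14 and 9 counts, and no UA library reached the lowest WT library. No coordinates were used for ME1.

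**Figure D2:**
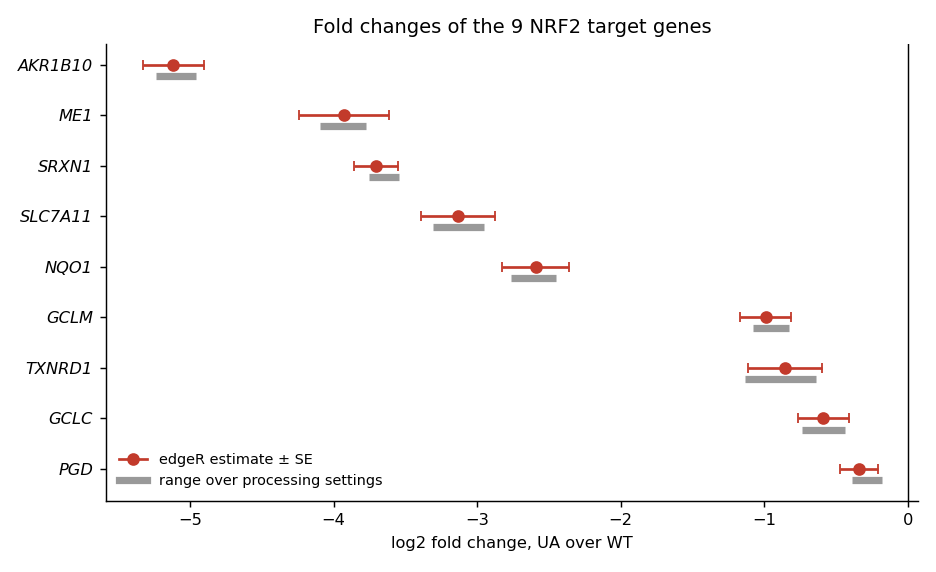
Log2 fold change, UA over WT, of the 9 genes (x axis) as the edgeR estimate ± SE (red), with the range over the main and 13 alternative processing settings (grey bars). AKR1B10 is at -5.12 and PGD at -0.34, and no range reaches 0.

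When the UA libraries were summed to 1 sample, the median log2 fold change of the 9 genes was -2.57. In that fit SRXN1, AKR1B10, NQO1, SLC7A11 and ME1 had log2 fold changes of -3.68, -5.16, -2.57, -3.08 and -3.88. GCLM, GCLC, TXNRD1 and PGD had log2 fold changes of -0.92, -0.59, -0.84 and -0.32.

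Within the WT label the 9 genes did not vary together. WT replicate 1 had 0.459 times the mean of the other WT libraries for TXNRD1, 0.656 times for ME1, 0.659 times for NQO1 and 0.698 times for GCLC. It had 0.958, 1.02 and 1.05 times for SRXN1, SLC7A11 and GCLM. WT replicate 1 was the lowest WT library for 6 of the 9, beside 38.1% of all genes tested, and the median ratio was 0.885 for the 9 and 0.989 for all genes. The median ratio of the related lists was 0.840 for NRF2 regulators, 0.862 for NADPH supply, 1.09 for detoxification, 1.12 for heme and iron, 1.25 for glutathione, and 1.26 for thioredoxin and peroxiredoxin. The lists thus lay on both sides of 1 in WT replicate 1. Glutathione reductase, GSR, was the lowest of the glutathione list, at 0.280 times.

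**Figure D3:**
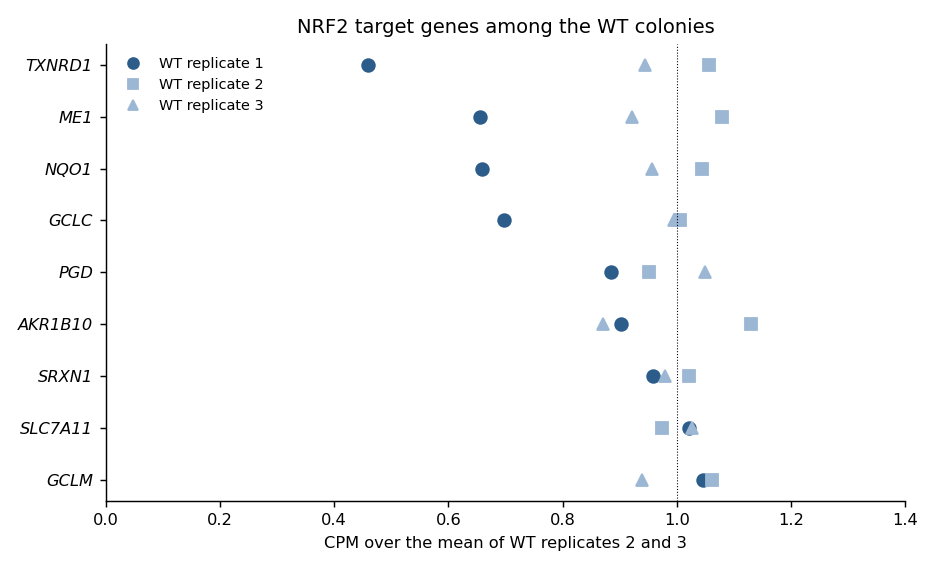
CPM of each WT colony divided by the mean of WT replicates 2 and 3 (x axis) for the 9 genes, ordered by WT replicate 1 (dark circles). TXNRD1, ME1, NQO1 and GCLC lie below 0.7 in WT replicate 1, and SRXN1, SLC7A11 and GCLM lie near 1.

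The gene most like each of the 9 was taken as the 1 with the smallest root-mean-square distance of centred log2 CPM over the 6 libraries, among 9328 genes with a symbol and at least 5 CPM on average. These were GFI1B for SRXN1 (distance 0.121 on the log2 scale), CD1B for AKR1B10 (0.292), CYP51A1 for NQO1 (0.128) and IL1RN for SLC7A11 (0.110). TRAF1 was nearest to ME1 (0.136), IQCB1 to GCLM (0.0598), CHEK1 to GCLC (0.0591), MARS2 to TXNRD1 (0.0731) and ABHD12 to PGD (0.0206). GFI1B, a transcription factor of erythroid and megakaryocyte cells, had 12.6, 12.3 and 9.89 CPM in UA and 144, 133 and 131 CPM in WT. MARS2, the mitochondrial methionyl-tRNA synthetase, shared the low WT replicate 1 of TXNRD1, with 13.2, 13.9 and 15.7 CPM in UA and 14.6, 32.6 and 30.2 CPM in WT. AKR1B10 had the most distant nearest gene.

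Of 15 tested genes that control NRF2, 4 rose and 6 fell in UA, beside 34.6% and 31.4% of all genes. Those counts are near the shares of all genes and are no result about the list. The median log2 fold change of the list was -0.14. NFE2L2 itself had 86.5, 79.9 and 75.2 CPM in UA and 330.02, 390.02 and 347 CPM in WT. It fell in 3 of 3 UA libraries by 2.14 on the log2 scale (SE 0.15, edgeR adjusted p = 1.05e-06). KEAP1, the sensor that holds NRF2 down, fell too, to 53.4 ± 6.44 CPM in UA, against 165 ± 17.4 CPM in WT (SD, n = 3 each; log2 fold change -1.62, edgeR adjusted p = 1.16e-05). The mRNAs of both the activator and its inhibitor were therefore lower in UA, and their proteins were not measured. RBX1, the ring subunit of the ligase, fell by 1.73 on the log2 scale (SE 0.20, edgeR adjusted p = 3.18e-05), and the scaffold CUL3 had a log2 fold change of 0.23 (edgeR adjusted p = 0.2). The ratio of KEAP1 to NFE2L2 counts was 0.649, 0.727 and 0.613 in UA and 0.440, 0.451 and 0.503 in WT.

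The mRNAs of the repressors of the same elements rose. BACH1 had 199, 231 and 205 CPM in UA and 19.0, 36.7 and 29.6 CPM in WT, log2 fold change 2.90 (SE 0.23; edgeR adjusted p = 2.62e-06). BACH2, its relative in B-lineage and progenitor cells, had 196, 226 and 199.96 CPM in UA and 2.47, 2.68 and 3.20 CPM in WT, log2 fold change 6.23 (SE 0.20; edgeR adjusted p = 1.22e-08). Neither repressor overlapped between labels. The ratio of BACH1 to NFE2L2 counts was 2.30, 2.89 and 2.72 in UA and 0.0576, 0.0941 and 0.0852 in WT. NFE2L3, an NRF2 relative, fell by 3.77 on the log2 scale (SE 0.21, edgeR adjusted p = 2.49e-07). Against the WT spread alone, NFE2L2, KEAP1, BACH1 and BACH2 had log2 fold changes of -2.09, -1.57, 2.90 and 6.23, each called (edgeR adjusted p at most 0.00307).

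Of the small MAF partners, MAFF rose to 83.8 ± 3.84 CPM in UA, against 50.8 ± 6.63 CPM in WT (SD, n = 3 each; log2 fold change 0.72, edgeR adjusted p = 0.00284). It did not pass with the UA libraries summed (0.72, edgeR adjusted p = 0.129). MAFG and MAFK had log2 fold changes of -0.33 and -0.12 (edgeR adjusted p = 0.134 and 0.805), and NFE2L1, another relative of NRF2, 0.14 (0.673). Named after their values were seen, BTRC, an adaptor of a further ligase for NRF2, rose by 1.08, and SQSTM1, the autophagy receptor p62 that competes for KEAP1, had a log2 fold change of -0.40 (edgeR adjusted p = 0.0197). SQSTM1 was not called without any 1 UA library (-0.40 to -0.39, edgeR adjusted p = 0.0833 to 0.0881) or with library size alone (-0.24).

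**Figure D4:**
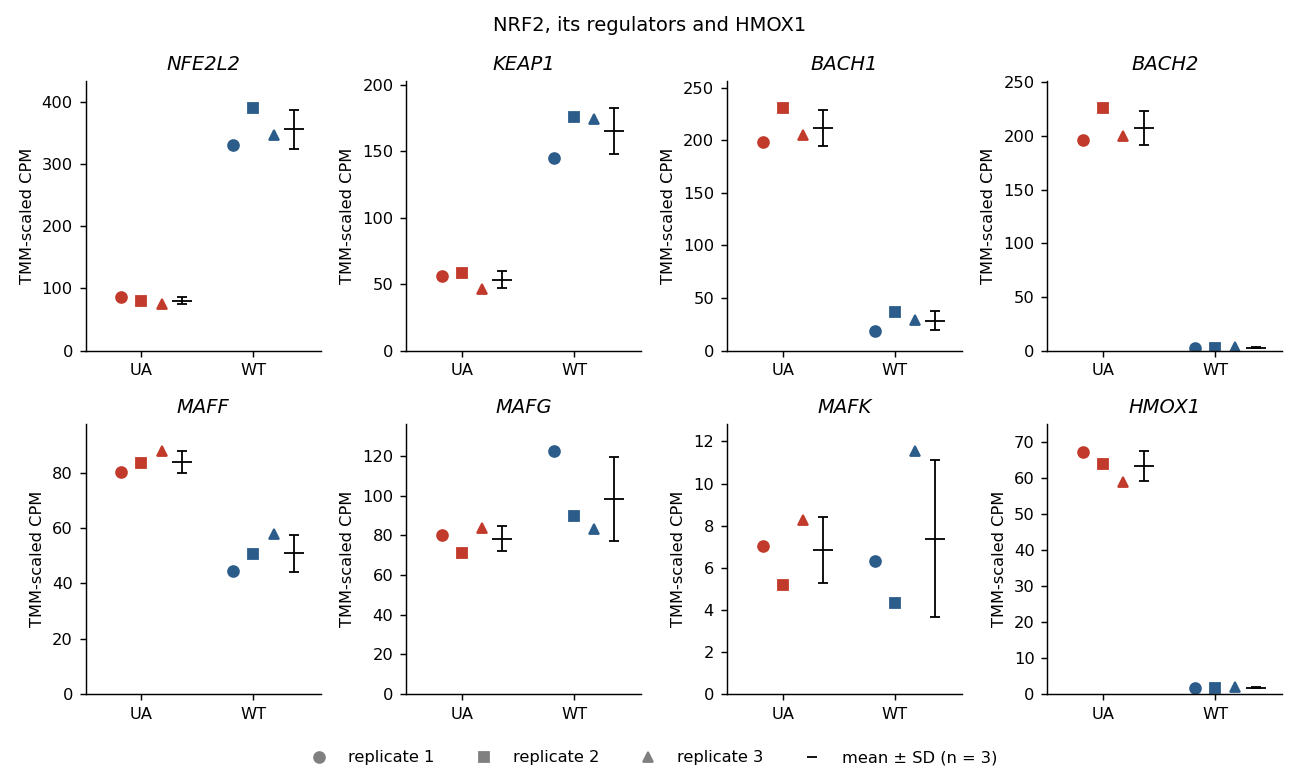
TMM-scaled CPM (y axes, linear from 0) of NFE2L2, which encodes NRF2, of KEAP1, BACH1, BACH2 and the small MAF genes, and of HMOX1, in each UA colony (red, left) and WT colony (blue, right), with mean ± SD of 3 libraries. NFE2L2 and KEAP1 are lower in UA, BACH1, BACH2, MAFF and HMOX1 are higher, and MAFG and MAFK overlap.

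Heme and iron genes split. HMOX1, heme oxygenase, a target of NRF2 and of BACH1 repression, went against the 9 targets, with 67.2, 63.8 and 58.9 CPM in UA and 1.64, 1.63 and 1.94 CPM in WT. Its rise was 5.19 on the log2 scale (SE 0.23, edgeR adjusted p = 5.91e-08). The mRNA of BACH1, a repressor of HMOX1, was also higher in the UA libraries, and its part in HMOX1 levels was not tested. SLC40A1, the iron exporter ferroportin, rose by 2.59 (edgeR adjusted p = 4.34e-06). The ferritin chains FTL and FTH1 fell, with log2 fold changes of -2.10 and -1.10 (edgeR adjusted p = 9.12e-06 and 4.44e-05), which are uncertain, since reads may be shared with processed copies. BLVRA, biliverdin reductase A, which acts on the product of HMOX1, fell to 43.5 ± 1.70 CPM in UA, against 149.7 ± 61.7 CPM in WT (SD, n = 3 each; log2 fold change -1.79, edgeR adjusted p = 0.000118). In all, 2 of 9 rose and 6 fell, beside 34.6% and 31.4% of all genes, and their median log2 fold change was -1.10. With the UA libraries summed to 1 sample, HMOX1 and SLC40A1 had log2 fold changes of 5.23 and 2.60. FTL, FTH1 and BLVRA had -2.07, -1.08 and -1.79. Fewer of this list, and fewer of all genes, were called in that fit. FECH, ferrochelatase, had a log2 fold change of 0.32 (edgeR adjusted p = 0.191).

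Of 28 genes of glutathione synthesis and use tested, of 40 listed, 16 fell and 1 rose, beside 31.4% and 34.6% of all genes, and their median log2 fold change was -0.92. GSS, which completes glutathione, had a log2 fold change of -1.40 (edgeR adjusted p = 6.87e-05) and so fell as well. The transferases GSTP1 and MGST1 fell by 1.64 and 1.65 (edgeR adjusted p = 1.75e-05 and 3.76e-05), and GLRX2, a mitochondrial glutaredoxin, by 2.92 (5.98e-05). GSTP1 had 529, 485 and 508 CPM in UA and 2011, 1288 and 1450.5 CPM in WT. CHAC2, which degrades glutathione, fell by 2.13 (edgeR adjusted p = 6.35e-06), and CHAC1, its relative, by 2.19 (0.00559). Other genes of glutathione breakdown were not called, with log2 fold changes of -0.18 for GGT1, -0.06 for GGT5, 0.20 for GGCT and 0.52 for OPLAH (edgeR adjusted p at least 0.284). CHAC1 and these 4 were named after their values were seen. HAGH, a glyoxalase, fell by 1.54. SLC3A2, the heavy chain that carries SLC7A11 to the membrane, named after its values were seen, fell by 0.94 (edgeR adjusted p = 0.000152). GPX4, which reduces lipid peroxides, had a log2 fold change of -0.41 (edgeR adjusted p = 0.0576), and -0.54 without WT replicate 2, where it was called (0.0223). GSTK1 and GSTM5 had log2 fold changes of -0.09 and 0.10 (edgeR adjusted p = 0.695 and 0.655). The gene that rose was GPX8, with 92 counts in UA and 0 in WT, at least 38.1-fold higher when the WT libraries together are set at 3 counts. After summing the UA libraries, GSS, GSTP1, MGST1, GLRX2 and CHAC2 had log2 fold changes of -1.335, -1.61, -1.66, -2.86 and -2.12. GPX8 had 8.70. Fewer of this list, and fewer of all genes, were called in that fit. GSR, which recycles oxidized glutathione, had 50.4, 49.6 and 48.3 CPM in UA and 11.7, 36.9 and 47.0 CPM in WT, and was not called (log2 fold change 0.64, edgeR adjusted p = 0.163). It was called higher with the replicate block (0.84, edgeR adjusted p = 0.0221) and without a low-count filter (0.63, edgeR adjusted p = 0.0162). It was named after its values were seen, and WT replicate 1 is again its low library.

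Of 17 thioredoxin, peroxiredoxin and superoxide genes tested, 9 fell and 4 rose, beside 31.4% and 34.6% of all genes. Their median log2 fold change was -1.35. PRDX1, a peroxiredoxin and NRF2 target, had 70.9, 60.1 and 74.3 CPM in UA and 583, 463 and 467 CPM in WT (log2 fold change -2.88, SE 0.17, edgeR adjusted p = 3.35e-07). PRDX5 fell by 2.30 and SOD1, the cytosolic superoxide dismutase, by 1.74 (edgeR adjusted p = 8.79e-06 and 2.29e-05), and TXNL1 by 1.38. Those that rose were TXNIP, CAT, SESN1 and SESN3, the last pair named after their values were seen. TXNIP, which binds and inhibits thioredoxin, had 474, 464 and 469 CPM in UA and 39.7, 54.3 and 57.8 CPM in WT (log2 fold change 3.21, SE 0.18, edgeR adjusted p = 2.37e-07). CAT, catalase of peroxisomes, rose to 684 ± 9.10 CPM in UA, against 142 ± 28.1 CPM in WT (SD, n = 3 each; log2 fold change 2.27, edgeR adjusted p = 1.75e-06). The sestrins SESN1 and SESN3 rose by 1.58 and 2.37. PRDX6, TXNRD2 and SESN2 had log2 fold changes of -0.18, -0.03 and 0.42 and were not called (edgeR adjusted p = 0.317, 0.903 and 0.24). Summing the UA libraries gave log2 fold changes of -2.87 for PRDX1, -2.25 for PRDX5, -1.73 for SOD1, 3.23 for TXNIP and 2.28 for CAT.

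Among 18 other genes of NADPH supply, 8 fell and 4 rose, beside 31.4% and 34.6% of all genes. Their median log2 fold change was -0.22. TALDO1, transaldolase, fell by 1.03, RPE by 0.85, and the NADP-dependent isocitrate dehydrogenases IDH1 and IDH2 by 1.21 and 0.95 (edgeR adjusted p at most 0.00163). TKT, transketolase, a neighbour of TALDO1 in the pathway, had a log2 fold change of 0.04 (edgeR adjusted p = 0.787), and NADK, which makes NADP, 0.01 (0.975). MTHFD1 had a log2 fold change of -0.24 (edgeR adjusted p = 0.315), and -0.44 without WT replicate 1, where it was called (0.000103). Those that rose were H6PD, NNT, ME2 and ALDH1L1, the last 3 named after their values were seen. H6PD, an NADPH-producing enzyme of the endoplasmic reticulum, rose by 4.65, NNT, a mitochondrial transhydrogenase, by 1.30, and ME2, the mitochondrial malic enzyme, by 0.64 (edgeR adjusted p = 4.9e-06, 0.00258 and 0.00443). ALDH1L1 had 64, 31 and 16 counts in UA and 9, 0 and 0 counts in WT (edgeR adjusted p = 0.00301). ME1 and ME2 thus went opposite ways. Summing the UA libraries gave log2 fold changes of -0.98 for TALDO1, -1.17 for IDH1 and -0.92 for IDH2. H6PD, NNT and ME2 had 4.72, 1.32 and 0.62. Fewer of this list, and fewer of all genes, were called in that fit.

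Detoxification enzymes and exporters split as well, with 10 of 17 tested (26 listed) falling and 5 rising, beside 31.4% and 34.6% of all genes. Their median log2 fold change was -1.03. ALDH3A1, which oxidizes aldehydes to acids, had 0.217, 0.385 and 0.738 CPM in UA and 154, 105 and 116 CPM in WT (log2 fold change -8.34, SE 0.35, edgeR adjusted p = 5.44e-08). PIR, pirin, had 2.93, 4.90 and 4.87 CPM in UA and 87.3, 40.1 and 45.6 CPM in WT (log2 fold change -3.81, SE 0.36, edgeR adjusted p = 7.12e-06). NQO2, the relative of NQO1, fell by 1.96 and CBR1, a carbonyl reductase, by 1.84 (edgeR adjusted p = 7.41e-06 and 1.6e-05). OSGIN1, a growth inhibitor induced by oxidative stress, fell by 1.58. Those that rose, named after their values were seen, were the exporters ABCC1, ABCC3 and ABCC5 (log2 fold changes 0.99, 1.63 and 1.47), the epoxide hydrolase EPHX1 (2.66) and the aldo-keto reductase AKR1C1 (0.62). AKR1C1 was not called without UA replicate 1, UA replicate 3 or WT replicate 3 (0.63, 0.53 and 0.50; edgeR adjusted p = 0.0587, 0.0877 and 0.0602), and its relatives may share reads. ABCC4 had a log2 fold change of -0.12 (edgeR adjusted p = 0.658), and was called lower without WT replicate 1 (-0.33, 0.0362). ALDH3A2 had one of 0.08 (edgeR adjusted p = 0.712). After summing the UA libraries, ALDH3A1, PIR, NQO2 and CBR1 had log2 fold changes of -8.38, -3.88, -1.94 and -1.77. ABCC1, ABCC3, ABCC5, EPHX1 and AKR1C1 had 1.02, 1.65, 1.43, 2.64 and 0.61. Fewer of this list, and fewer of all genes, were called in that fit.

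**Figure D5:**
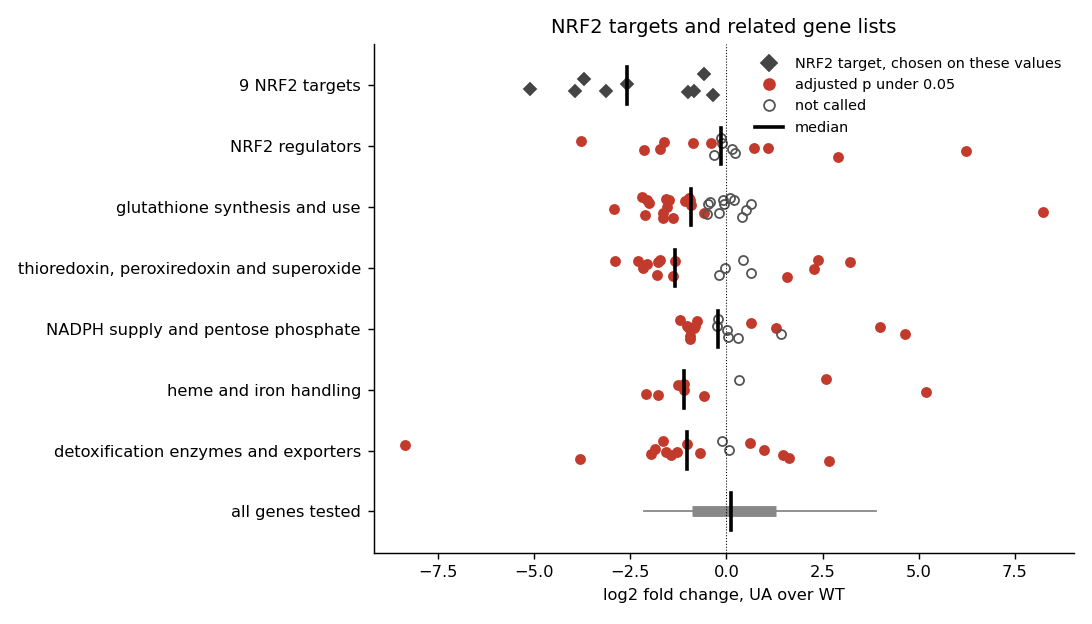
Log2 fold change, UA over WT (x axis), of the 9 NRF2 targets (diamonds, chosen on these values) and of the tested genes of 6 related lists (filled circles, edgeR adjusted p under 0.05; open circles, not called), with medians as black bars and all genes tested as their middle range (thick) and wider range (thin, without the outermost genes). GPX8, with 0 counts in WT, is drawn at its fitted value, the point farthest to the right. The median is -2.59 for the 9 targets and between -1.35 and -0.14 for the lists, beside 0.12 for all genes.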

How the data were processed

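RNA of 6 single colonies was converted with the SMART-Seq V4 kit and made into Nextera XT libraries, per the labels' protocols. Neither kit step marks strand or molecule, so overlapping genes share reads and PCR copies count. Build Mmul_8.0.1 and bcl2fastq are named in the submitters' processing notes; for aligner and counter, the sources used here say nothing. The authors deposited raw counts per gene, with no normalization. A second deposited table lists gene comparisons with, per the file headers, a mean normalized count (a signal) and a log2 fold change. Its gene coordinates, used here as deposited, carry no build name, and its symbols were used first, a table of gene names second.

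The test was edgeR's quasi-likelihood F-test (version 4.0.16 in R 4.3.3, robust=TRUE), fitted to 6 libraries with UA or WT as its single term. Low counts were removed by filterByExpr (default minimum count of 10 and total of 15), scaling was TMM (factors 0.86 to 1.07), and Benjamini-Hochberg adjusted p-values under 0.05 over 13768 genes were called. The SE is the log2 fold change over the square root of F. Each mean and SD is of 3 TMM-scaled CPM values. For a gene with 0 counts the upper limit (3 counts) is 0.137 CPM at the greatest depth and 0.443 CPM at the least, covering counting error only. The 9 targets and all lists were chosen with earlier results of these data known. Named from each list were up to 6 called genes of smallest p and up to 3 uncalled genes of highest CPM, besides NFE2L2, KEAP1, BACH1, the small MAF genes and HMOX1. Same-numbered libraries of the labels did not deviate together (Pearson r of deviations over genes 0.013, 0.022 and 0.013), so libraries were not paired. Alternatives were DESeq2 1.42.0 size factors or its test, library size alone, no low-count filter, at least 5 CPM in 3 libraries, a replicate block, each library left out, and the UA libraries summed. A gene that the naming rule picks is not reported here. No sequences were analysed here.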

Additional observations from a re-analysis of the deposited data

How the results depend on the processing

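The 9 targets were lower in UA in all 13 alternatives, a direction set by how they were chosen, and their median log2 fold change stayed between -2.76 and -2.45. With the UA libraries summed to 1 sample, 5424 genes differed (3014 higher, 2410 lower) in place of 9091, 5 of the 9 targets were called lower, 3 detoxification genes rose, and 3 heme and iron genes and 2 NADPH genes fell. That fit had fewer samples and the WT libraries as its only measure of spread. The part of each in the fewer calls was not tested. Glutathione genes that rose numbered 2 without a low-count filter, 2 with the replicate block and 0 with at least 5 CPM in 3 libraries, a filter that removed GPX8. The replicate block, whose numbers do not pair libraries, called 8939 genes and 8 of the 9 targets, and the DESeq2 test 9323 and 9. Library size alone called 6 of the 9 and moved the median log2 fold change of all genes to 0.28, against 0.12 with TMM. Leaving out 1 library gave 7916 to 9949 genes and 7 to 9 of the targets. Depth limits ME1 and SLC7A11 in UA replicate 3, with 9 and 19 counts.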

Other observations

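The authors' deposited table of differential expression lists 8 of the 9 targets, all with positive log2 fold changes, from 2.27 for AKR1B10 to 5.18 for GCLM, but names neither the groups nor the libraries compared. In the authors' deposited table the mean normalized count of GCLM was 2094 and that of PGD 809, a ratio of 2.59, whereas the ratio of their counts in the 6 libraries was 0.0603 to 0.120. Of 20091 genes in both tables, 15282 (76.1%) had a mean in the authors' deposited table outside the range of the 6 libraries' counts scaled by DESeq2 size factors. Its fold changes were therefore not set beside those of the report.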
